A study of Sus scrofa with 3 samples.

Results

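The insulin signalling pathway of the liver was followed from the receptor to the forkhead transcription factors through 10 genes, INSR, IRS1, IRS2, PIK3R1, PIK3CA, AKT1, AKT2, FOXO1, FOXO3 and SOCS3. They were chosen by name, and each was looked up as a gene symbol among the 34579 annotated features of the liver tables. Under their own symbols 7 were found, and PIK3R1 was found under its gene number as LOC100623707, so that 8 genes are described. IRS2 and AKT1 are not analysed here. The tables hold the livers of Chinese Wuzhishan miniature pigs, all of them fed the same diet rich in fat and cholesterol (HFC). They are labelled as 6 to 7 months old. By the methods of the study this was the age on arrival, before the diet, so the pigs were older when the livers were taken. IM pigs were intact males, CM pigs were castrated males, and CMT pigs were castrated males that received testosterone replacement. Each group is 1 RNA-Seq library made from the mixed liver RNA of 3 pigs according to the labels, so the pigs of a group cannot be told apart and no difference between groups has a replicate check. The paper describes larger groups of animals, and the size of a pool is not stated in it.

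Insulin binds its receptor INSR, a tyrosine kinase, which phosphorylates the adaptor proteins IRS1 and IRS2. These recruit phosphoinositide 3-kinase, made of a regulatory subunit such as PIK3R1 and a catalytic subunit such as PIK3CA, and its lipid product activates the kinases AKT1 and AKT2. In hepatocytes AKT phosphorylates FOXO1 and FOXO3, which then leave the nucleus. FOXO1 is best known in liver for switching on genes of gluconeogenesis during fasting, and SOCS3, a gene induced by cytokines, encodes an inhibitor of the receptor and its adaptors. The activity of this pathway is set largely by phosphorylation, which RNA-Seq does not measure.

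Levels are given as FPKM, the deposited unit, in which reads are divided by transcript length and by a divisor for the library. The reads behind a value were recovered from the steps between FPKM values, and they summed to between 25419904 and 36126736 per library. Ratios carry a 95% exact binomial (Clopper-Pearson) interval on those reads, which covers counting error only and says nothing of the spread between pigs. A gene was counted as different where it was an mRNA feature, had an FPKM of 1 or more in each library and differed by 1.5-fold or more, which 15613 features could meet and which all 8 genes were high enough to meet. Across those features the median log2 ratio was -0.020 between CM and IM, 0.013 between CMT and CM and -0.0072 between CMT and IM. The FPKM minimum of 1 is low, standing for 2.51 recovered reads per kilobase in IM, 3.42 in CM and 2.04 in CMT. These library divisors are far smaller than the usual definition of FPKM gives, so deposited values run high. The shares of all features given below thus include features with few reads, whose ratios can pass 1.5-fold by counting error alone. At an FPKM of 10 or more in each library 12127 mRNA features remain, and no share at that minimum is given. Equal column sums would add 0.26 to every log2 ratio of CM to IM and scaling to the recovered reads 0.28, and they would take 0.25 and 0.24 from those of CMT to CM. The directions that turn under these scalings are named with the genes. In a whole-liver library, fewer cells of a type and less RNA per cell cannot be told apart.

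FOXO1 stood farthest apart of the 8 genes. Its FPKM was 265 in IM, compared with 67.1 in CM and 127 in CMT. These values rested on 1970 recovered reads for IM, 679 for CM and 765 for CMT. CM was the low library, IM the high one, and CMT lay between them. FOXO1 was 3.95-fold lower in CM than in IM (interval 3.62 to 4.32), which is a log2 ratio of -1.98. With testosterone replacement it was 1.89-fold higher than in CM (1.70 to 2.10), and it was still 2.09-fold lower in CMT than in IM (1.92 to 2.28). Of the 15613 features, 140 had a CM to IM ratio as low as that of FOXO1 or lower, which is 0.897%, and 5.604% had a CMT to CM ratio as high or higher. This order among the features is the same however whole libraries are scaled. With values scaled to the recovered reads the log2 ratios of FOXO1 were -1.70 between CM and IM and 0.68 between CMT and CM.

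A second feature, LOC102159988, is described by the study as forkhead box protein O1-like. Its FPKM was 83.1 in the IM library, 27.6 in CM and 34.7 in CMT. As for FOXO1, the CM library was lowest and the IM library highest. It was 3.02-fold lower in CM than in IM (2.62 to 3.48) and 1.26-fold higher in CMT than in CM (1.05 to 1.51), so that CMT stayed 2.40-fold below IM. The interval for CMT versus CM includes 1 when the reads are halved to allow for mates counted separately, and it does so under upper quartile scaling, equal column sums and scaling to the recovered reads. Whether reads of FOXO1 were split between both loci was not tested, and the split is uncertain. Added together, both features had an FPKM of 348 in IM, against 94.6 in CM and 161 in CMT, a 3.68-fold difference between CM and IM.

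FOXO3 encodes a second forkhead factor under the control of AKT. Its FPKM was 284 in IM, compared with 158 in CM and 176 in CMT. Both castrated libraries lay below IM and close to each other. FOXO3 was 1.80-fold lower in CM than in IM (1.63 to 1.98) and 1.61-fold lower in CMT than in IM (1.45 to 1.80). Between CMT and CM its ratio of 1.11 had an interval of 0.994 to 1.25, a difference that was not detectable at this depth, and its direction turned with equal column sums or with scaling to the recovered reads. Under the latter the CM to IM log2 ratio was -0.57, short of 1.5-fold. Levels are per length, so they can be compared roughly between genes, and FOXO3 was 1.07 times the FPKM of FOXO1 in IM, 2.36 times in CM and 1.39 times in CMT. The order in IM depends on the uncertain split of reads with the FOXO1-like feature. With both features added together, FOXO3 lay below FOXO1 in IM, at 284 against 348. It still lay above in CM, at 158 against 94.6, and in CMT, at 176 against 161. FOXO4, another family member, had an FPKM of 151 in the IM library, 102 in CM and 145 in CMT, and its 1.48-fold difference between CM and IM was just short of 1.5-fold.

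**Figure D1:**
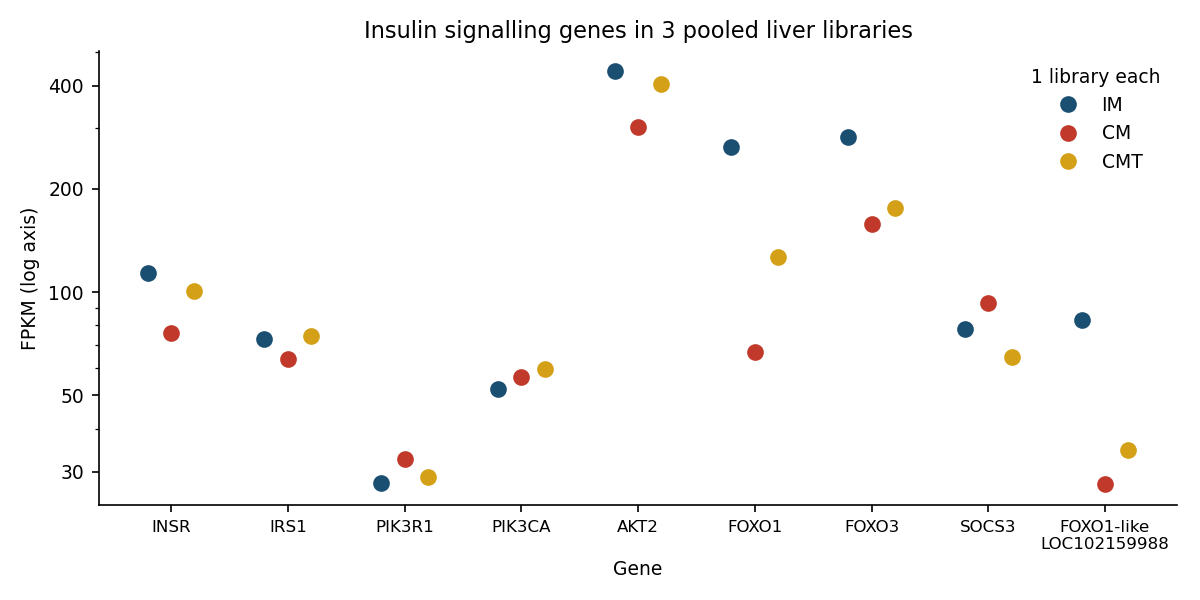
FPKM (log axis) of 8 insulin signalling genes and the FOXO1-like feature in the IM, CM and CMT libraries, with 1 point per library and no error bar. FOXO1 is at 265 in IM and 67.1 in CM, while PIK3R1 and PIK3CA differ by at most 1.18-fold between libraries as deposited.

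At the top of the pathway, the receptor INSR had an FPKM of 114 in IM, against 76.3 in CM and 101 in CMT. The CM library was lowest, and IM and CMT were near each other. INSR was 1.49-fold lower in CM than in IM (1.34 to 1.66) and 1.32-fold higher in CMT than in CM (1.17 to 1.49). Its CMT to IM ratio was 0.886 (0.789 to 0.996), and that interval included 1 on halved reads. With equal column sums the CMT to CM ratio of INSR was 1.11 (0.989 to 1.25) and with scaling to the recovered reads 1.12 (0.995 to 1.26), both with an interval that included 1. Between CM and IM, as deposited, INSR lay just outside the 1.5-fold rule, as did AKT2, while FOXO3 was the gene closest to it on the inside. With equal column sums the CM to IM ratio was 0.801 for INSR and 0.824 for AKT2. With scaling to the recovered reads it was 0.814 and 0.837, so both genes then lay farther from the rule. The related receptor IGF1R, which binds insulin-like growth factor, was far lower, with INSR at 9.99 times its FPKM in IM, 7.61 times in CM and 7.57 times in CMT.

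IRS1, the adaptor that INSR phosphorylates, had an FPKM of 73.3 in IM, compared with 63.8 in CM and 74.7 in CMT. The 3 libraries lay close together. Its ratio of CM to IM was 0.871 (0.804 to 0.943) and that of CMT to CM 1.17 (1.08 to 1.27), and both directions turned with equal column sums or with scaling to the recovered reads. CMT and IM did not differ beyond counting error, with a ratio of 1.02 (0.934 to 1.11), whose direction turned under upper quartile scaling.

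PIK3CA and PIK3R1, subunits of phosphoinositide 3-kinase, differed by at most 1.18-fold as deposited. PIK3CA, the catalytic subunit p110 alpha, had an FPKM of 52.2 in the IM library, 56.5 in CM and 59.7 in CMT. Its ratio was 1.08 for CM to IM (0.951 to 1.23), 1.06 for CMT to CM (0.925 to 1.21) and 1.14 for CMT to IM (0.989 to 1.32), and the direction of the second turned with equal column sums or with scaling to the recovered reads. All 3 intervals included 1 as deposited, and that of CM to IM lay above 1 with equal column sums (1.14 to 1.47) or with scaling to the recovered reads (1.15 to 1.497), under which that of CMT to IM (1.02 to 1.36) did too. PIK3R1, which encodes the regulatory subunit p85 alpha, had an FPKM of 27.8 in IM, against 32.7 in CM and 28.9 in CMT. Reads were not recovered for it, so its CM to IM ratio of 1.18 has no interval.

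AKT2, the AKT kinase best known for the metabolic effects of insulin, was the most abundant of the 8 genes in every library. Its FPKM was 439.7 in IM, compared with 303 in CM and 403 in CMT. Like INSR it was lowest in CM, with IM and CMT close to each other. AKT2 was 1.45-fold lower in CM than in IM (1.39 to 1.52) and 1.33-fold higher in CMT than in CM (1.26 to 1.40). Both intervals excluded 1, with 2812 or more recovered reads in each library, but the differences were smaller than 1.5-fold.

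SOCS3 went the other way, with its highest value in CM. Its FPKM was 78.3 in IM, against 93.2 in CM and 64.8 in CMT. The values rested on only 58, 94 and 39 recovered reads, a number that may be too low by a common factor. The ratio was 1.19 for CM to IM (0.848 to 1.68), 0.696 for CMT to CM (0.466 to 1.02) and 0.827 for CMT to IM (0.537 to 1.26), so that no difference of SOCS3 exceeded its counting error as deposited. This depended on the scaling. For CMT versus CM the 1.44-fold difference passed 1.5-fold, and its interval lay below 1, under upper quartile scaling (0.442 to 0.967), equal column sums (0.393 to 0.860) and scaling to the recovered reads (0.395 to 0.865). For CM versus IM the interval lay above 1 with equal column sums (1.01 to 2.01) or with scaling to the recovered reads (1.03 to 2.04).

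**Figure D2:**
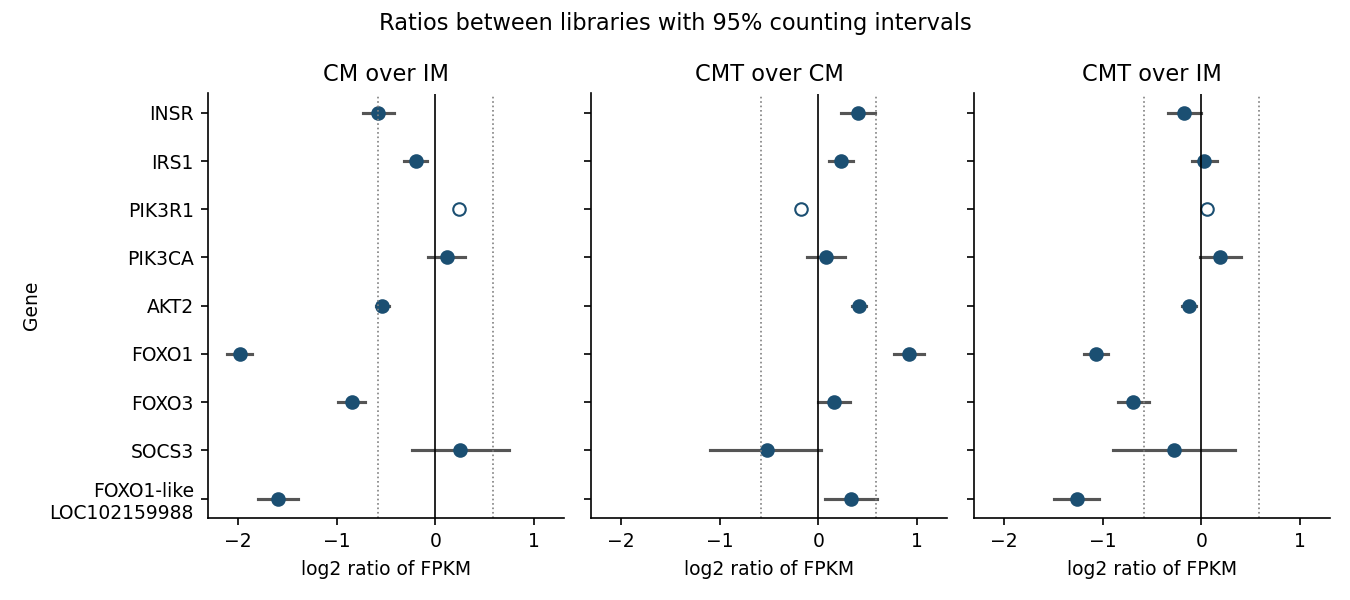
Log2 ratios of FPKM between libraries for the same genes, with bars for 95% exact binomial intervals (counting error only), dotted lines at 1.5-fold, and open circles where reads were not recovered. FOXO1 lies beyond 1.5-fold in all 3 panels, and FOXO3 does so in the panels that hold IM.

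Between CM and IM, 2 of the 8 genes, FOXO1 and FOXO3, were 1.5-fold or more lower in CM, and none was higher, beside 12.1% of the 15613 features lower and 11.1% higher. In CMT versus CM, FOXO1 alone was higher and none was lower, beside 12.1% of features higher and 13.5% lower. CMT was lower than IM for FOXO1 and FOXO3, and no gene was higher, while 10.1% of all features were lower and 6.67% were higher. Only FOXO1 was 1.5-fold or more lower in CM than in IM and CMT alike, against 7.12% of features, and none of the 8 was higher in CM than in both, against 6.87% of features. No test sets the counts of these 8 genes apart from the background shares. IM versus CM and CM versus CMT share the CM library, so a value that is low in CM by chance appears in both. The split of all features depended on the scaling, since 52.0% of the features that differed between CM and IM were lower in CM as deposited, 24.9% with equal column sums and 22.6% with scaling to the recovered reads. For CMT versus CM the lower share was 52.7% as deposited, 77.3% with equal column sums and 76.7% with scaling to the recovered reads.

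**Figure D3:**
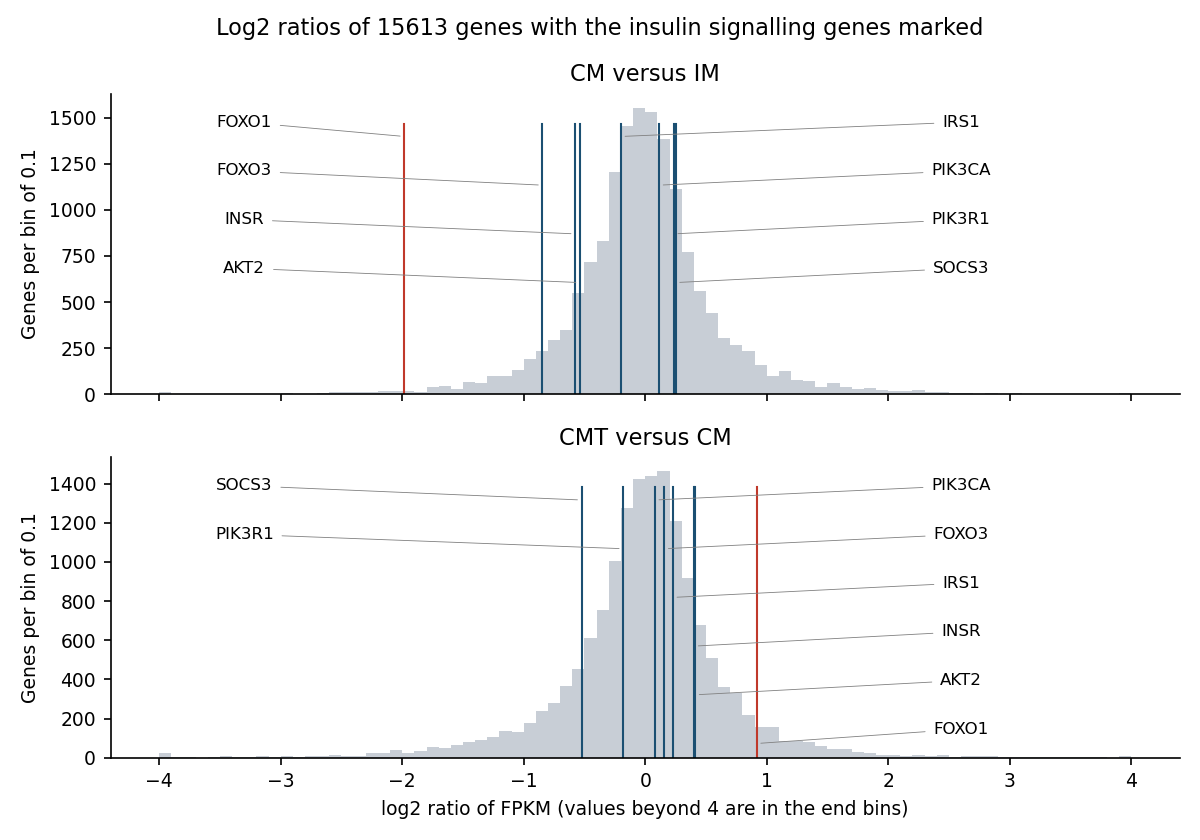
Histograms of the log2 ratio of FPKM for 15613 features (grey bars, number of genes per bin of 0.1) for CM versus IM and CMT versus CM, with a vertical line for each of the 8 genes and FOXO1 in red. FOXO1 lies in the left tail at -1.98 in the first and at 0.92 in the second, and the other 7 genes lie nearer to the centre in the first.

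The rest of the pathway was described from 11 lists written from general gene function, which name 166 genes besides those above. The lists were chosen with earlier results of these data known, so their counts are a description and no independent result. Of these 160 were found and 155 passed the FPKM minimum. In CM, 28 of the 155 (18.1%) were 1.5-fold or more lower than in IM and 13 (8.39%) higher, beside 12.1% and 11.1% of all features. In CMT, 24 (15.5%) were higher and 11 (7.10%) lower than in CM, beside 12.1% and 13.5% of all features. The median log2 ratio was -0.11 between CM and IM and 0.085 between CMT and CM. All values for the 155 genes leave out the 8 genes, whereas those of a single list include any of the 8 that it holds. INSR and IRS1, for example, are among the receptors and adaptors. The shares of all features given here apply beside the counts of each list as well. CM was the lowest library by 1.5-fold or more for 16 genes (10.3%) and the highest for 4 (2.58%), as deposited, beside 7.12% and 6.87% of all features. With equal column sums these counts became 7 (4.52%) and 14 (9.03%), beside 3.78% and 12.97% of all features, so all features turned as well. Scaling to the recovered reads gave 7 and 14 too, beside 3.67% and 13.2% of all features. Under both scalings the median of CM to IM stayed below 0 for the FOXO1 target genes and the glucose and lipid genes induced by insulin, and it was above 0 for the other 9 lists. For CMT to CM it stayed above 0 for those 2 lists and for the glycogen arm.

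The list called brakes on the receptor takes in the SOCS family, not all of which are known to act on the insulin receptor. It included 3 of the genes lowest in CM among 15 measured. SOCS2, an inhibitor of cytokine and growth hormone signalling, had an FPKM of 578 in IM, compared with 129 in CM and 214 in CMT. CISH, of the same SOCS family, was at 365 in the IM library, 78.3 in CM and 275 in CMT. ENPP1, a membrane enzyme that can bind the insulin receptor and inhibit it, was at 237 in IM, against 92.8 in CM and 209 in CMT. The CM to IM differences were 4.47-fold for SOCS2 (4.17 to 4.79), 4.67-fold for CISH (3.75 to 5.85) and 2.55-fold for ENPP1 (2.27 to 2.88). With equal column sums, or with scaling to the recovered reads, SOCS2 no longer lay 1.5-fold below CMT in CM. SOCS2 and SOCS3, though related in sequence, thus had opposite directions in CM, with SOCS3 within its counting error as deposited. Over the list, 5 genes were lower in CM than in IM and 2 were higher, beside 12.1% and 11.1% of all features. The median log2 ratio was -0.010.

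Among 12 receptors and adaptors that passed the minimum, none differed by 1.5-fold between CM and IM, and the median log2 ratio was -0.19. The phosphoinositide list held, among 15, 3 genes higher in CM than in IM and none lower, beside 11.1% and 12.1% of all features. Its median was 0.12. PIK3R4, a regulatory subunit of the class III kinase VPS34 that acts in autophagy, was at 43.3 in IM, compared with 90.0 in CM and 46.6 in CMT, a 2.08-fold difference between CM and IM (1.88 to 2.30). PIK3CG, the class I catalytic subunit found mainly in leukocytes, was at 19.1 in the IM library, 31.1 in CM and 18.4 in CMT from 23, 51 and 18 reads, and the interval of its CM to IM ratio included 1. Like those of SOCS3, these read numbers may be too low by a common factor, which would make the interval too wide.

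Among 16 genes of AKT and its regulators, 1 was lower in CM than in IM and 1 was higher. TRIB3, a pseudokinase that can bind AKT and inhibit it, was the higher one, with an FPKM of 4.35 in IM, compared with 12.4 in CM and 1.89 in CMT. Its level was low, at 34, 132 and 12 recovered reads, yet the CM to IM ratio of 2.85 (1.94 to 4.29) and the 6.56-fold difference between CM and CMT (3.63 to 13.0) exceeded counting error. In the mTORC1 arm, 4 of 16 genes were lower and none higher in CM than in IM, beside 12.1% and 11.1% of all features. The median was -0.16. ULK1, a kinase that starts autophagy, had an FPKM of 449 in the IM library, 177 in CM and 321 in CMT. SESN1, a stress protein that restrains mTORC1, was at 299 in IM, against 114 in CM and 264 in CMT. Both were lowest in CM by 1.82-fold or more.

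A pair of liver forkhead factors of the FOXA family had opposite patterns. FOXA2, which activates genes of fasting metabolism, had an FPKM of 174 in IM, compared with 54.6 in CM and 102 in CMT, 3.18-fold lower in CM than in IM (2.83 to 3.58) and 1.87-fold higher in CMT than in CM (1.64 to 2.14). FOXA3 was at 59.6 in the IM library, 201 in CM and 91.2 in CMT, 3.37-fold higher in CM than in IM (2.96 to 3.85). The values of FOXA2 ran in the order of FOXO1, with IM highest and CMT in the middle, and those of FOXA3 in the reverse order. Of the 18 FOXO factors and cofactors, FOXO genes described above included, 5 were lower in CM than in IM and 2 were higher. This stands beside 12.1% and 11.1% of all features, and the median log2 ratio was -0.050.

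Genes known as FOXO1 targets numbered 25 that could be measured, INSR among them. In CM, 8 were 1.5-fold or more lower than in IM and none was higher, beside 12.1% and 11.1% of all features. The median log2 ratio was -0.41, against -0.020 over all features. Compared with CM, CMT had 6 higher and 2 lower, beside 12.1% and 13.5% of all features. The median was 0.35 there, against 0.013 over all features. Hepatocyte markers had medians of -0.40 and 0.32 in the same comparisons, close to those of the target genes, and their part in the result was not tested. With equal column sums the medians were -0.16 and 0.10. PCK1, which encodes the cytosolic phosphoenolpyruvate carboxykinase of gluconeogenesis, had an FPKM of 15266 in IM, against 6514 in CM and 11000.0 in CMT. TAT, tyrosine aminotransferase, was at 10758 in IM, compared with 4379.7 in CM and 7074 in CMT. KLF15, a transcription factor of amino acid breakdown and gluconeogenesis, was at 972 in the IM library, 482 in CM and 807 in CMT, and GADD45B, a stress response gene, was at 616 in IM, against 294 in CM and 538 in CMT. Together with SESN1, these were the 5 targets lowest in CM by 1.5-fold or more, from 2.02-fold for KLF15 to 2.63-fold for SESN1 between CM and IM. With equal column sums, or with scaling to the recovered reads, PCK1, TAT and KLF15 no longer met that rule, and SESN1 and GADD45B did. IGFBP1, a secreted binding protein repressed by insulin and chosen after its values were seen, was at 17280.5 in IM, compared with 8005 in CM and 11328 in CMT, and its 1.42-fold difference between CMT and CM was short of 1.5-fold. FOXO1 activity in the nucleus was not measured.

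**Figure D4:**
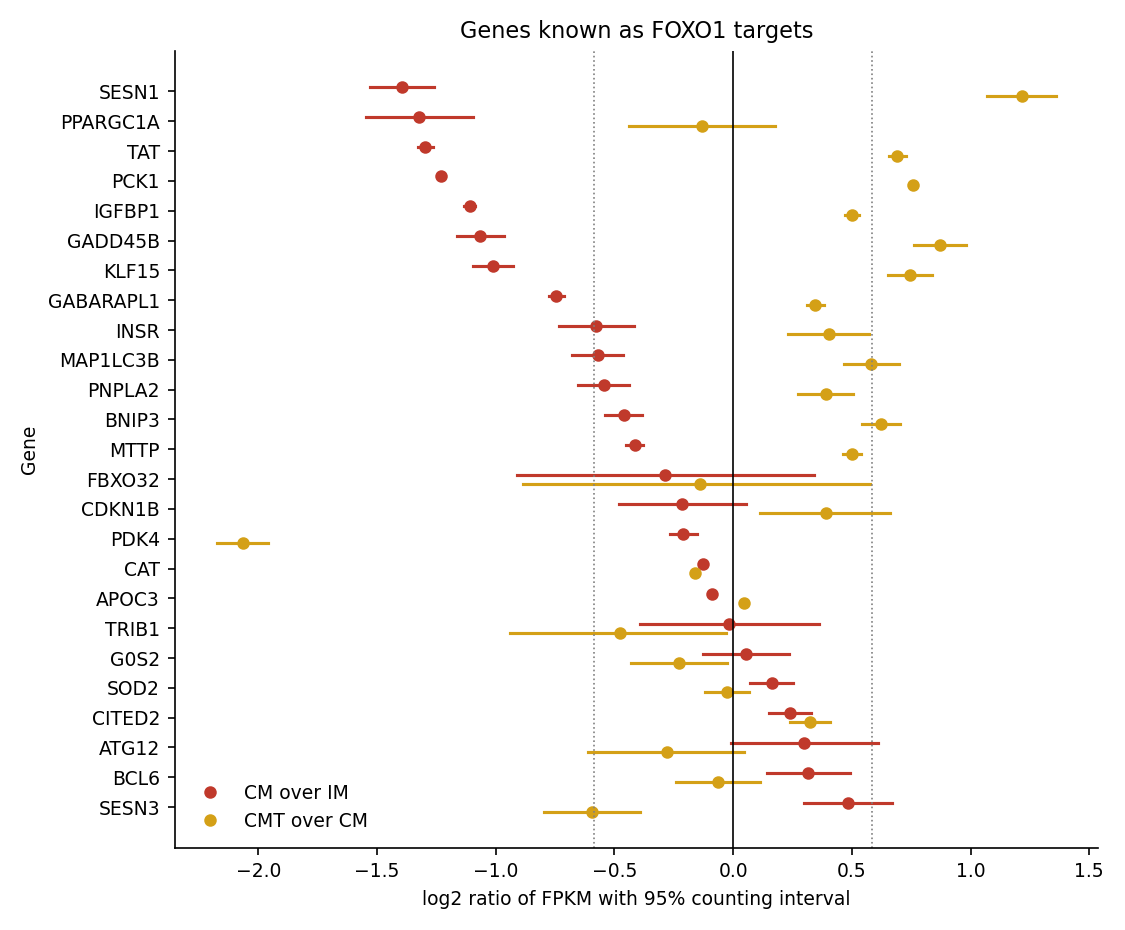
Log2 ratios of FPKM for 25 genes known as FOXO1 targets, in the order of CM over IM, with bars for 95% exact binomial intervals (counting error only), red for CM over IM, yellow for CMT over CM and dotted lines at 1.5-fold. In CM 8 genes lie below the 1.5-fold line and none lies above it, beside 12.1% and 11.1% of all features.

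Glycogen genes were split. Of 14, 5 were lower in CM than in IM and 2 were higher, beside 12.1% and 11.1% of all features. The median log2 ratio was -0.17. PPP1R3G, a subunit that targets protein phosphatase 1 to glycogen, had an FPKM of 74.0 in the IM library, 20.8 in CM and 34.8 in CMT. GBE1, the glycogen branching enzyme, was at 895 in IM, against 550.5 in CM and 1087 in CMT. PHKA2 and PHKB, subunits of the kinase that activates glycogen phosphorylase, were lowest in CM as well, at 146 in IM, compared with 89.6 in CM and 144 in CMT for PHKA2 and at 181, 104 and 208 for PHKB. None of these 4 met the rule with equal column sums or with scaling to the recovered reads.

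Glucose and lipid genes that insulin is known to induce held, among 11, 3 that were higher in CM than in IM and 3 that were lower. The shares of all features were 11.1% and 12.1%. In CMT, 6 were higher and none lower than in CM, beside 12.1% and 13.5% of all features. The median log2 ratios were -0.42 and 0.60, beside -0.40 and 0.32 for the hepatocyte markers. ACACA, acetyl-CoA carboxylase of fatty acid synthesis, was at 158 in the IM library, 64.9 in CM and 140.1 in CMT, a 2.43-fold difference between CM and IM (2.28 to 2.59). MLXIPL, a carbohydrate-responsive transcription factor, was at 725 in IM, against 474 in CM and 731 in CMT and lost the rule under upper quartile scaling, equal column sums and scaling to the recovered reads. Of the 14 genes in the RAS and MAPK arm, 1 was lower and none higher in CM than in IM. Inducers of SOCS3, such as the IL-6 receptor chains and STAT3, held none in either direction among 11, with a median of -0.11.

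**Figure D5:**
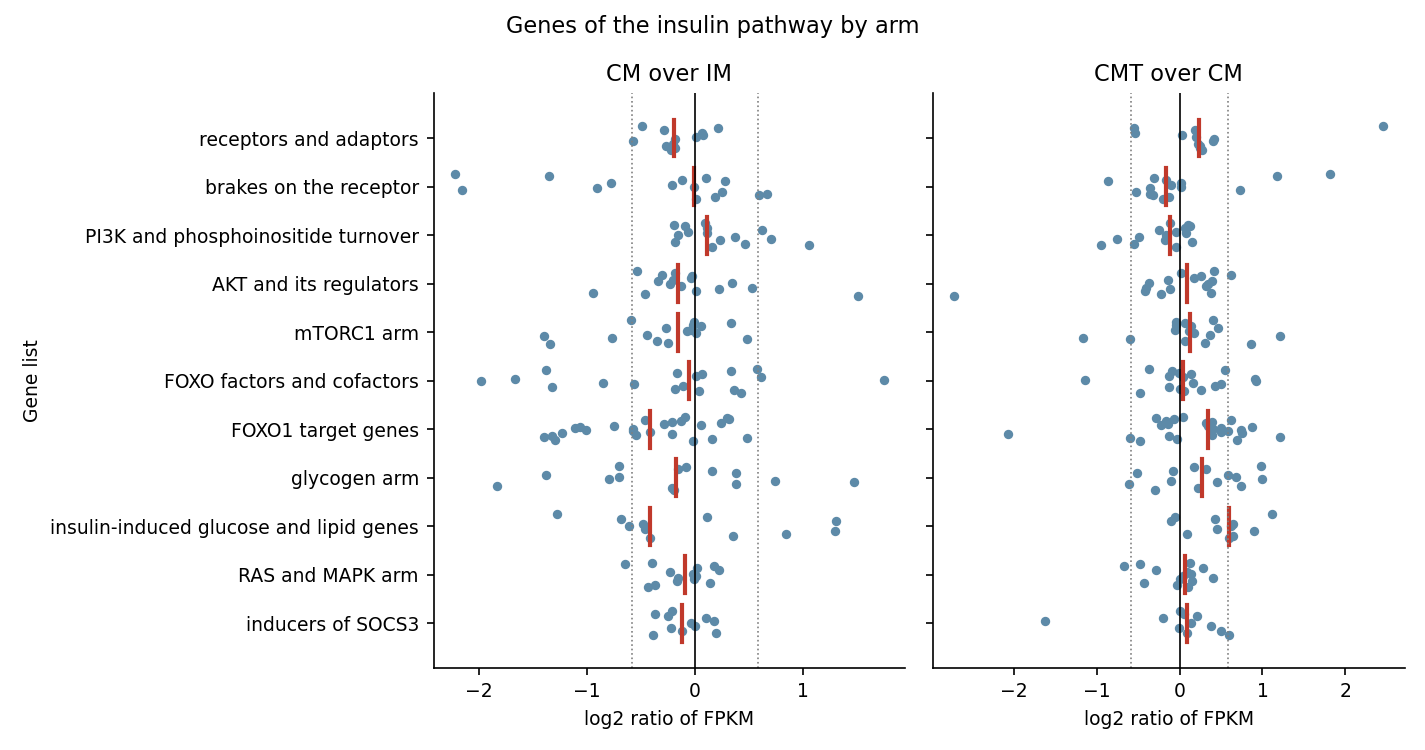
Log2 ratios of FPKM for the genes of 11 pathway lists, 1 blue point per gene, with a red bar for the median of each list and dotted lines at 1.5-fold, for CM over IM and CMT over CM. The FOXO1 target genes have a median of -0.41 in the first panel and 0.35 in the second.

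The tissue label was checked against cell type markers. All 10 hepatocyte markers were present, and their summed FPKM was 1036348 in IM, compared with 760682 in CM and 804883 in CMT, mostly albumin (ALB). One of the 10 was 1.5-fold or more lower in CM than in IM and the median log2 ratio between CM and IM was -0.40, beside -0.58 for INSR, -0.54 for AKT2 and -1.98 for FOXO1. T and NK cell markers had a summed FPKM of 639 in the IM library, 838 in CM and 525 in CMT, with 2 of 10 higher in CM than in IM and 8 of 10 lower in CMT than in CM. Kupffer cell and macrophage markers summed to 17051 in IM, against 16922 in CM and 18458 in CMT, with 1 of 9 lower in CM than in IM. Endothelial markers summed to 3987 in IM, compared with 3263 in CM and 3709.9 in CMT and stellate cell and fibroblast markers to 1953 in the IM library, 2164 in CM and 1691 in CMT, with 1 of 9 and none of 10 lower in CM than in IM and none higher. For cholangiocyte markers the sums were 906 in IM, against 895 in CM and 1242 in CMT, with 3 of 5 higher in CM than in IM, and for neutrophil markers 5154 in IM, compared with 5567 in CM and 4095 in CMT, with 4 of 8 lower. B and plasma cell markers summed to 61.3 in the IM library, 72.1 in CM and 60.3 in CMT with none of 6 past 1.5-fold between CM and IM. The adipocyte-defining genes ADIPOQ and LEP were listed at 0 in all 3 libraries, and the adipocyte list summed to 107 in IM, against 84.0 in CM and 99.98 in CMT, with 1 of 3 higher in CM than in IM and 1 of 3 lower. Beside these counts, 12.1% of all features were lower and 11.1% higher in CM than in IM, and 13.5% were lower in CMT than in CM. The part of these marker shifts in the results above was not tested.

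Finally, the features nearest to FOXO1 were sought in a plane whose axes are the log2 ratio between CM and IM and that between CMT and CM, among 12127 mRNA features with an FPKM of 10 or more in each of the 3 libraries. The 5 nearest by Euclidean distance were VWA3B, LYZ, GCM1, SLC13A5 and PKD2, at distances from 0.134 to 0.226. SLC13A5, a citrate transporter of the hepatocyte, had an FPKM of 92.98 in IM, compared with 22.2 in CM and 47.7 in CMT. PKD2, the cation channel polycystin-2, was at 282 in the IM library, 64.6 in CM and 108 in CMT. LYZ, lysozyme, was at 40.3 in IM, against 10.18 in CM and 21.7 in CMT, while VWA3B was at 113, 28.4 and 58.8 and GCM1 at 37.1, 10.4 and 21.2. The likeness rests on 3 libraries, and nothing is said of a shared function or control.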

How the data were processed

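Liver RNA of each group was pooled and sequenced as paired ends on an Illumina instrument. The authors checked the reads with FastQC, mapped them to the pig genome Sscrofa 10.2 with TopHat and deposited FPKM values per feature. The counting program and the annotation release are not given in the sources used here. Reads were recovered for 23090 of 24277 features above 0, 95.1%, as the smallest transcript length of 20 to 10000 bases at which all 3 values gave whole reads within 1e-05 plus a relative 1e-09. The divisors were 2.51, 3.42 and 2.04 reads per kilobase and FPKM for IM, CM and CMT, chosen over those of read pairs because 9 of 13 mitochondrial protein genes then lay within 2 bases of their RefSeq length. A common factor can be lost, which widens an interval, and mates counted separately narrow it. The recovery was tested on simulated data with the true divisors given to it. That test could not show a divisor of reads mistaken for that of read pairs. Nor could it show intervals too narrow where mates were counted separately.

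Ratios used the deposited values without a pseudocount. With 1 library per group no p-value was computed, and the labels carry no replicate number, so no samples could be paired. The 10 genes and the lists were chosen with earlier results of these data known, and the lists follow general gene function. Besides the 10 genes and LOC102159988, named genes were the pathway genes 1.5-fold or more lower, or higher, in CM than in IM and CMT alike, and the 5 features nearest to FOXO1. IGFBP1, FOXO4 and IGF1R are further comparisons, chosen after their values were seen. Some genes of the lists are not reported by name here. Of 253 genes in all lists, 14 were matched by gene number, 1 by synonym and 12 were not matched. Alternatives were another FPKM minimum, a pseudocount of 1, a 2-fold threshold, 4 scalings, a counting interval that excludes 1 and, chosen after seeing the data, the interval on halved reads and the interval moved by each scaling. The tools were Python 3.11.15, numpy 2.4.6, pandas 2.3.3, scipy 1.17.1 and matplotlib 3.10.9.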

Additional observations from a re-analysis of the deposited data

How the results depend on the processing

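The counts of the 8 genes past 1.5-fold were 2 between CM and IM, 1 between CMT and CM and 2 between CMT and IM, and 1 gene was lowest or highest in CM against both others. Of 39 values of these counts under the alternatives, 31 stayed within 1.5 times the reported count. Of those 31, 4 came from an FPKM minimum of 10 and 4 from no minimum. These settings could not change a count, because each of the 8 genes had an FPKM of 27.8 or more in every library. With a threshold of 2-fold the counts became 1 between CM and IM, 0 between CMT and CM, 1 between CMT and IM and 0 for lowest or highest in CM. Scaling to the recovered reads gave 1 for CM versus IM, where FOXO3 dropped out, and 2 for CMT versus CM, where SOCS3 was added. Upper quartile scaling and equal column sums each gave 2 for CMT versus CM for the same reason. No called direction of a gene reversed under any alternative, but none could. The scalings moved a log2 ratio by at most 0.28, less than a 1.5-fold difference, and a pseudocount cannot turn a direction. Of 135 log2 ratios of single genes under the alternatives 31 moved beyond their counting interval, or by 0.1 or more where no reads were recovered, of which 15 did so with equal column sums and 15 with scaling to the recovered reads. No paired analysis was possible because each group has 1 library. No library could be left out for the same reason, and the spread between pigs is not known. Among the pathway genes named, depth limits SOCS3, TRIB3 and PIK3CG most, with 39, 12 and 18 recovered reads in CMT. The numbers for SOCS3 and PIK3CG may be too low by a common factor.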

Other observations

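Several genes of the same lists had patterns other than a low or a high CM library. They were chosen after their values were seen, and each group is 1 library. SCD, the stearoyl-CoA desaturase, was above IM in both castrated libraries, at 788 in the IM library, 1414 in CM and 1506 in CMT, and PPP1R3C, a glycogen-targeting subunit, at 57.8, 161 and 219. PPARGC1A, the coactivator of FOXO1 in gluconeogenesis, was below IM in both, at 152 in IM, against 60.8 in CM and 55.6 in CMT. SOCS1, a relative of SOCS3, was at 71.96 in IM, compared with 38.3 in CM and 29.99 in CMT.

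CMT stood apart for others. PDK4, a FOXO1 target that slows glucose oxidation, had an FPKM of 1046 in the IM library, 905 in CM and 216 in CMT, and was 4.19-fold lower in CMT than in CM (3.88 to 4.52), while PCK1 was higher there. LEPR, the leptin receptor, was at 232 in IM, against 262 in CM and 85.6 in CMT. CAV1, the caveolin that binds the insulin receptor, was at 50.5 in IM, compared with 36.0 in CM and 198 in CMT. SREBF1, the lipogenic factor induced by insulin, was at 917 in the IM library, 1169 in CM and 1823 in CMT.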
